A study of Saccharomyces cerevisiae with 2 samples.

Results

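Transcript levels of 10 genes of glycerol metabolism and of the high-osmolarity glycerol (HOG) pathway were examined in budding yeast, Saccharomyces cerevisiae, with and without mating pheromone. The members are GPD1, GPD2, GPP1, GPP2, GUT1, GUT2, STL1, FPS1, HOG1 and PBS2, taken by symbol from the annotation of the array. They are 10 of 5449 S. cerevisiae genes named on the array, and all 10 were above the background level in both samples. The study held 2 samples, each 1 culture whose RNA was read on its own Affymetrix Yeast 2.0 array, which measures 1 sample in 1 colour with short DNA probes. One culture was mock-treated, and the other was arrested with alpha factor, the peptide pheromone of alpha cells, at 50 ng/ml for 3 hours. The sources used here do not describe the growth of the mock culture. Both cultures were of 1 haploid strain of the a mating type, derived from S288c, with the genotype MATa ura3Δ0 leu2Δ0 his3Δ1 met15Δ0 bar1Δ::KanMX. The control therefore also lacks BAR1, whose product is a secreted protease for this pheromone.

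Glycerol is the main compatible solute of budding yeast, made and retained when the medium draws water out of the cell. It is made from dihydroxyacetone phosphate, a glycolytic intermediate, by a glycerol-3-phosphate dehydrogenase and then a glycerol-3-phosphatase, a route that also reoxidises NADH. The HOG pathway is a MAP kinase cascade in which osmosensors act through the MAP kinase kinase Pbs2 on the MAP kinase Hog1, whose targets include genes of glycerol synthesis. Its Sho1 branch shares Ste20, Ste50 and Ste11 with the mating pathway, so the comparison of these cultures sets the genes of 2 connected cascades side by side.

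With 1 array per condition there is no replicate error for any value, no test between the conditions and no p-value, and the precision of every difference is limited by the number of arrays. Values are log2 expression values, and each difference is alpha factor minus mock. The background level was the 95th percentile of probe sets for the fission yeast S. pombe, 5.50 (mock) and 5.49 (alpha factor). A gene was called higher or lower only by size, when its values differed by 2-fold or more and it was above background in at least 1 array. Among 5337 genes above background the median difference was -0.03, 5.51% were called higher and 3.78% were called lower. Differences of the S. pombe probe sets lay between -0.38 and 0.35 in 95% of cases, a range that describes signal near background and not the spread between cultures.

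Of the 10 members, 1 was called higher and none lower. It was GPD1, and GPP2 and STL1 had the next largest differences. The other 7 had differences between -0.38 and -0.08, all below 0. The median over the members was -0.13, against -0.03 over all genes. Nothing is read from 1 call among 10 genes beside the 5.51% of all genes called higher. Values of different genes come from different probes and are not ranked against each other. In bulk RNA, a change in the share of cells that hold a transcript and a change in its amount per cell cannot be told apart.

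**Figure D1:**
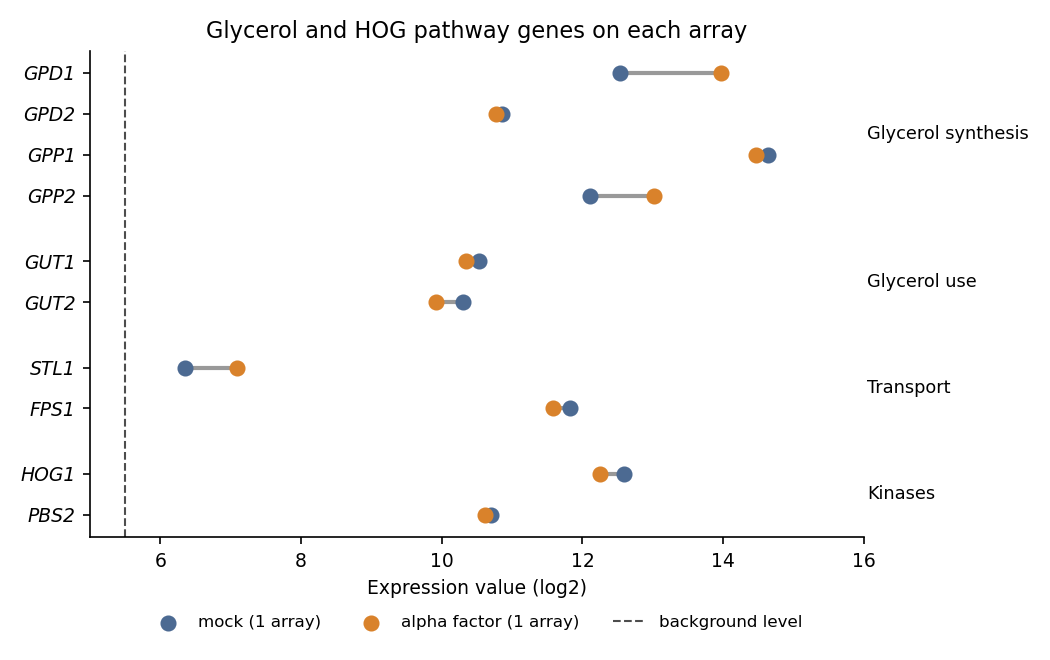
Log2 expression value (horizontal axis) of the 10 members on the mock array (blue) and on the alpha-factor array (orange), 1 array each, grouped by role, with the background level as a dashed line. GPD1 goes from 12.53 to 13.98, GPP2 from 12.10 to 13.02 and STL1 from 6.34 to 7.09, while the other pairs of points differ by at most 0.38.

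Glycerol synthesis starts with the paralogues GPD1 and GPD2, which encode the NAD-dependent glycerol-3-phosphate dehydrogenases. GPD1 is the isoform known for its induction by osmotic stress, and GPD2 the one known for its role in redox balance without oxygen. GPD1 (YDL022W, chromosome IV) had a value of 12.53 with mock treatment and 13.98 with alpha factor. That is 2.72-fold higher, a log2 difference of 1.45, and 148 of the 5337 genes had a larger difference. GPD2 (YOL059W, chromosome XV) had values of 10.86 and 10.77, a difference of -0.09. The GPD1 difference exceeded that of its paralogue by 1.54 on the log2 scale, which is 2.90-fold.

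The second step is carried out by the glycerol-3-phosphatases, encoded by the paralogues GPP1 (formerly RHR2) and GPP2 (formerly HOR2). GPP2 (YER062C, chromosome V), an isoform known to be induced by osmotic stress, had values of 12.10 and 13.02. Its difference of 0.91 is 1.88-fold and short of the 2-fold rule, with 344 genes above it. GPP1 (YIL053W, chromosome IX) had values of 14.64 and 14.47, a difference of -0.16. Its values lie near 15.19, the highest on either array, where an increase can be compressed. GPP2 exceeded GPP1 in its difference by 2.11-fold. GPD1 and GPP2 thus had the larger difference of each pair, beside -0.09 for GPD2 and -0.16 for GPP1. No pattern of isoforms is read from 2 pairs with 1 array per condition. The coding sequences of GPP1 and GPP2 are closely alike, and which stretches their probe sets read was not examined.

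GUT1 and GUT2 act in the opposite direction and let the cell grow on glycerol. GUT1 (YHL032C, chromosome VIII), the glycerol kinase, had values of 10.53 and 10.34, a difference of -0.18. GUT2 (YIL155C, chromosome IX), the mitochondrial FAD-dependent glycerol-3-phosphate dehydrogenase, had values of 10.30 and 9.92. Its difference of -0.38 was the lowest of the members, and 1071 genes had a lower one. Both genes were thus lower by less than the rule of size, and the difference of GUT2 lay at the edge of the S. pombe range. GUT2 was 4.80 (mock) and 4.42 (alpha factor) above background, so that range is no measure of its spread.

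STL1 and FPS1 move glycerol across the plasma membrane. STL1 (YDR536W, chromosome IV), a glycerol proton symporter known as a strongly induced target of Hog1, had values of 6.34 and 7.09. It was the member closest to background, 0.84 above that level without pheromone and 1.59 above it with pheromone. Its difference of 0.74 (1.67-fold) became 0.57 when a constant of 32 was added to the linear values, which lowers the differences of dim genes. FPS1 (YLL043W, chromosome XII), the aquaglyceroporin through which glycerol leaves the cell, had values of 11.82 and 11.58, a difference of -0.24.

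The kinases of the cascade were the members of the HOG pathway proper. HOG1 (YLR113W, chromosome XII), the MAP kinase, had values of 12.59 and 12.25, a difference of -0.35. PBS2 (YJL128C, chromosome X), its MAP kinase kinase and scaffold, had values of 10.70 and 10.62, a difference of -0.08. Neither gene was past the rule of size. These arrays measure transcripts, so the phosphorylation of Hog1 was not measured.

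**Figure D2:**
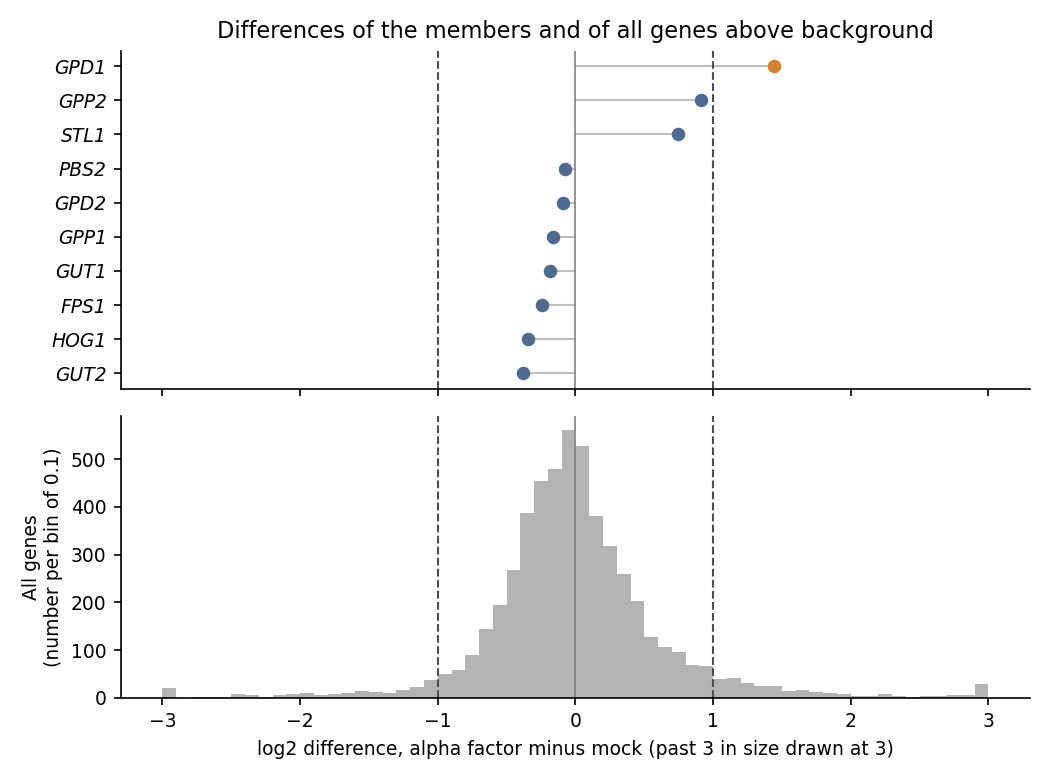
Top, log2 difference (alpha factor minus mock) of each member, sorted, with the gene past 2-fold in orange and the others in blue; bottom, the number of genes per bin of 0.1 over all 5337 genes above background; dashed lines mark 2-fold in either direction. GPD1 lies at 1.45, GPP2 at 0.91 and STL1 at 0.74, and 7 members lie just below 0.

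Upstream of Pbs2, 1 of 13 osmosensors and upstream kinases was called higher and none lower, with a median difference of 0.08. The shares over all genes were 5.51% higher and 3.78% lower, and nothing is read from 1 call in this list. The higher gene was SSK22, a MAP kinase kinase kinase of the Sln1 branch, at 9.33 and 10.39, a difference of 1.06. Its paralogue SSK2 had a difference of -0.08. SSK1, the response regulator that activates both, had values of 9.67 and 10.57, a difference of 0.90. The sensor kinase SLN1 and the phosphotransfer protein YPD1 differed by -0.02 and 0.00. On the other branch the sensor SHO1 differed by -0.19, and the mucin-like sensors MSB2 and HKR1 by -0.11 and 0.41. The membrane anchor OPY2 differed by 0.52. The components also used in mating, STE20, STE50, STE11 and CDC42, had differences of -0.02, 0.08, 0.26 and 0.14.

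Of 7 phosphatases and adaptors that lower HOG signalling, 1 was higher and none was lower, with a median difference of 0.05. Among all genes above background 5.51% were higher and 3.78% lower, and nothing is read from 1 call. PTP2, a tyrosine phosphatase that acts on Hog1 and on other MAP kinases, had values of 10.76 and 12.38, a difference of 1.61. PTP3, a related tyrosine phosphatase, had values of 10.71 and 10.13, a difference of -0.58. The type 2C phosphatases PTC1, PTC2, PTC3 and PTC4 lay between -0.36 and 0.12, and NBP2, the adaptor that brings Ptc1 to Pbs2, was at 0.23.

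Of 8 kinases and transcription factors that act after Hog1, 1 was higher and none was lower, with a median difference of 0.07. Here too the shares over all genes were 5.51% higher and 3.78% lower, and nothing is read from 1 call. SMP1, a MADS-box factor phosphorylated by Hog1, had values of 8.63 and 9.88, a difference of 1.24. HOT1, the factor through which Hog1 acts on STL1 and GPD1, had values of 9.47 and 9.44, a difference of -0.03. SKO1, a repressor that Hog1 converts to an activator, differed by 0.17. The general stress factors MSN2 and MSN4 had differences of -0.57 and 0.55, and the kinase gene RCK1 one of -0.45.

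Of 14 osmostress-induced genes named on the array, 5 were called higher and none lower, beside 5.51% and 3.78% of all genes. Their median difference was 0.47, and 13 had a difference above 0. The list was chosen with earlier results of these data known, so its count is a description only. NQM1, a transaldolase paralogue, had values of 8.68 and 11.35, a difference of 2.67. RTC3 had values of 8.25 and 10.89, a difference of 2.63. PAI3, an inhibitor of the vacuolar protease A, had values of 5.83 and 7.39, a difference of 1.56 from a mock value near background. TFS1, an inhibitor of carboxypeptidase Y, differed by 1.24 and MSC1 by 1.09. The other 9 genes of the list were within 2-fold. GRE2, a methylglyoxal reductase, differed by 0.12, the cytosolic catalase CTT1 by 0.06, the membrane-protecting protein HSP12 by 0.53 and the aldehyde dehydrogenase ALD3 by 0.12. GRE1, SIP18 and RTN2 differed by 0.20, 0.37 and 0.40. HOR7, at 13.62 and 14.60, differed by 0.97 and passed the rule with a difference of 1.01 when the arrays were centred on their S. cerevisiae medians. DDR2 was the gene with a difference below 0, at -0.34. Most of these genes are also known to answer the general stress factors Msn2 and Msn4, so the list does not read Hog1 alone.

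**Figure D3:**
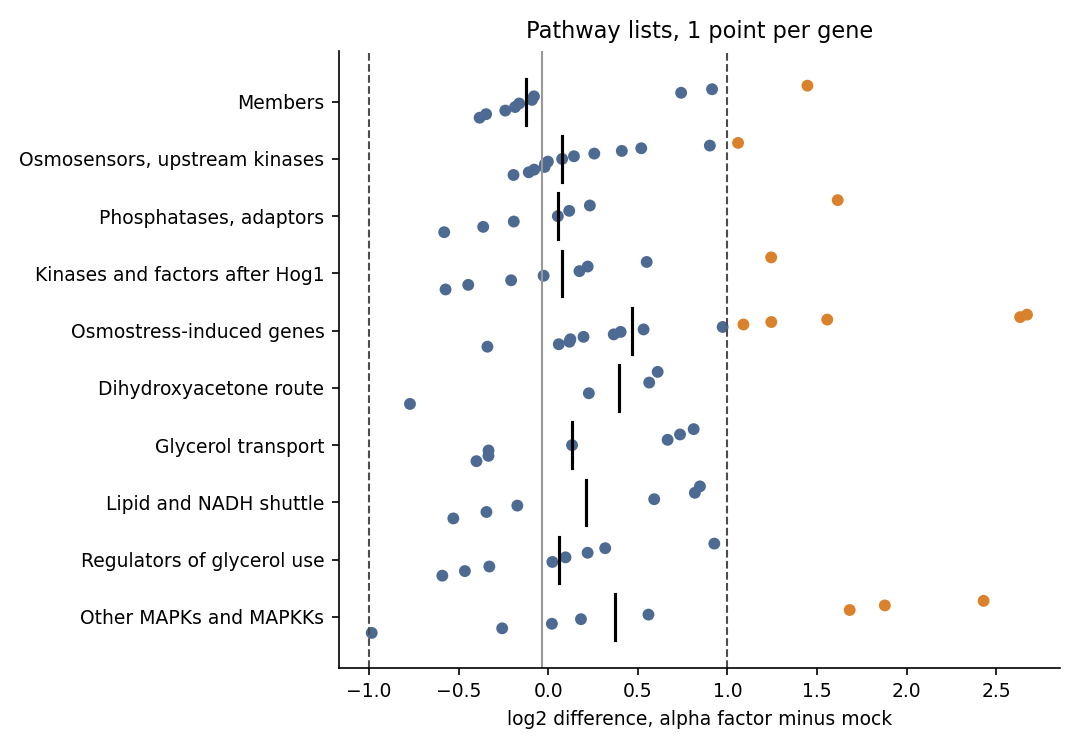
Log2 difference (alpha factor minus mock, horizontal axis) of each gene above background in the members and in the 9 pathway lists, 1 point per gene, orange past 2-fold and blue otherwise, with black bars at each list's median, dashed lines at 2-fold and a thin grey line at the median of all genes, -0.03. Orange points are 5 of 14 osmostress-induced genes, 3 of 8 kinases of other pathways and 1 of 10 members. Over all genes 5.51% were called higher and 3.78% lower. The lists were chosen with earlier results of these data known and are not ranked by these counts.

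Other routes of glycerol held no gene called by the 2-fold rule, where 5.51% of all genes were higher and 3.78% lower. On the dihydroxyacetone route, with 4 genes, the dihydroxyacetone kinase DAK1 differed by 0.56 and the aldo-keto reductases GCY1 and YPR1 by 0.23 and 0.61. DAK2, the other kinase, was at 5.90 in the mock array and below background with alpha factor, which bounds its change at 1.33-fold lower or more. Whether its fall reached 2-fold is therefore not known. Among 7 transport genes and channel regulators the median difference was 0.13. RGC1 and ASK10 (also called RGC2), paralogues that keep the Fps1 channel open, had differences of 0.81 and 0.67. YPK1, a kinase that keeps Fps1 open when active, differed by 0.74. The acyltransferase-like genes GUP1 and GUP2 were at 0.13 and -0.40, and the aquaporin genes AQY1 and AQY2 were both at -0.33. The positive differences in this list were those of 3 regulators of Fps1 and of GUP1, while FPS1 itself was at -0.24.

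Glycerol-3-phosphate also enters lipids, and Gut2 forms a shuttle for cytosolic NADH beside the external NADH dehydrogenases. Of 6 genes of these functions none passed 2-fold, where 5.51% of all genes were higher and 3.78% lower. The median difference was 0.21. The acyltransferases SCT1 and GPT2 had differences of -0.34 and -0.17, and AYR1, an acyl-dihydroxyacetone-phosphate reductase, one of 0.85. The external NADH dehydrogenases differed in sign, with NDE1 at -0.53 and NDE2 at 0.82, and the internal NDI1 was at 0.59. Of 8 regulators of genes for glycerol use none passed 2-fold, with a median of 0.06. ADR1, an activator of genes for growth without glucose, had values of 8.90 and 9.82, a difference of 0.93. OPI1 and RSF2 had differences of -0.59 and -0.46.

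The MAP kinases and MAP kinase kinases of other pathways were listed beside HOG1 and PBS2. Of these 8 genes 3 were higher and none was lower, beside 5.51% and 3.78% of all genes. Their median difference was 0.37. This list too was chosen with earlier results of these data known. SLT2, the MAP kinase of cell wall integrity, had a difference of 2.43, FUS3, a MAP kinase of mating, one of 1.88, and the pseudokinase gene KDX1 one of 1.68. KSS1, a MAP kinase whose roles include filamentous growth, differed by 0.56, where HOG1 differed by -0.35. SMK1, the MAP kinase of spore wall formation, differed by -0.98 and passed the rule at -1.03 after quantile normalization. The MAP kinase kinase genes STE7, MKK1 and MKK2 differed by -0.26, 0.02 and 0.18, and PBS2 by -0.08.

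The chromosomal neighbours of the members were read as well, a comparison added after the values had been seen. Of 20 neighbouring protein-coding genes, 15 were measured above background. Of these 1 was called higher and none lower, beside 5.51% and 3.78% of all genes, and nothing is read from 1 call. The higher gene was GPM2, a phosphoglycerate mutase homologue next to GPD1, which had values of 7.13 and 9.91, a difference of 2.78. The other 14 lay between -0.32 and 0.76, with CEM1 next to GPP2 at the upper end.

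Cell type markers and control probe sets were read on the same arrays. The pheromone response genes FUS1, FIG1, PRM1 and AGA1 were all higher with alpha factor, by between 2.18 and 5.90 on the log2 scale. The a-cell markers were above background in both arrays, and BAR1 was below background in both. Of the 6 a-cell markers 2 were higher, ASG7 by 4.71 and AGA2 by 1.27, beside 5.51% of all genes. Of 4 alpha-cell genes 2 were higher, STE3 by 1.76 from a mock value of 7.74 and MF(ALPHA)2 by 2.28 from 6.36. The major alpha-factor gene MF(ALPHA)1 was near background at 5.85 and 5.93. SAG1 was well above background on both arrays, at 9.53 and 9.91, a difference of 0.38. Ribosomal RNA differed between the arrays, with a median difference of -0.85 over 8 probe sets for 25S and -0.74 over 8 for 18S. The 25S probe sets ranged from -5.20 to 0.01 and the 18S ones from -1.81 to -0.33. For 8 control transcripts the 3' probe set minus the 5' one shifted by between -0.52 and 0.27. The part of these differences in the GPD1, GPP2 and STL1 values was not tested.

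The differences of the members were recomputed under 6 other ways of scaling or summarising the arrays. No member changed sign in any of them, and every one of the 60 recomputed differences lay within 0.19 of the value given above, the SD of the S. pombe differences. Part of this was fixed in advance. Each member had 1 probe set, so taking the brightest probe set could not move its difference, and a centring shifts all genes by the same amount. The sorted columns differed by at most 0.09, so quantile normalization could move a difference only a little. A constant of 32 is small beside the linear values of all members but STL1. GPD1 lay between 1.43 and 1.496 and GPP2 between 0.91 and 0.98, so that GPD1 alone stayed past the 2-fold rule. STL1 ranged from 0.57 to 0.78.

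**Figure D4:**
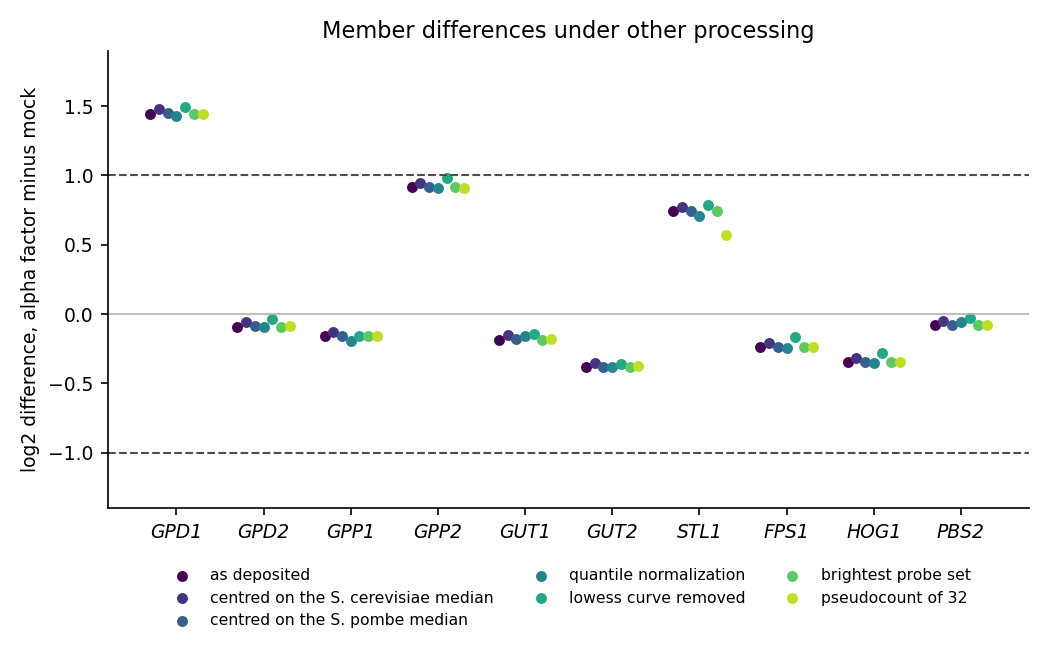
Log2 difference (alpha factor minus mock, vertical axis) of each member as deposited and under 6 alternatives, 1 point per setting, with 2-fold marked by dashed lines. GPD1 stays above the upper line in all settings, GPP2 below it at up to 0.98, and the 7 negative differences stay below 0. The points for the brightest probe set repeat those as deposited, since each member had 1 probe set.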

How the data were processed

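The data were 1 table of 10928 probe sets with 1 column per sample, taken as log2 expression values since they run from 3.32 to 15.19. Per the labels' design text, the authors analysed the arrays in Bioconductor's affy package before these log2 values were deposited. Version, background correction, normalization and probe summary were not found in the sources used here. The sorted columns differed by at most 0.09, so a change in total mRNA could not be seen. Arrays have no read depth.

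Groups came from the sample titles. The mock sample's free-text description is the same as the treated sample's and was set aside. Probe sets were named through the platform annotation and the RefSeq table of assembly R64. A single gene was named for 7244 probe sets, several for 1 and none for 3683. Gene IDs in that table made 5498 probe sets S. cerevisiae, and the other 1746 with a single gene were taken as S. pombe. Where a gene had several probe sets their log2 values were averaged, and each member had 1 probe set, with no name ending for several transcripts. Coordinates are not given, since the array's genome build is not stated.

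Members and lists were chosen with earlier results of these data known. Named were all members, every gene of a list past 2-fold, and up to 3 others of each list with the largest differences. Other genes were named after their values were seen. List genes without a named probe set (ENA1, AQY3) and all sequences were not analysed here. The calling code was run on simulated data, with planted changes well past 2-fold and noise of the SD of the S. pombe differences. That run checks the code and says nothing on the spread between cultures. Alternatives were other centrings, quantile normalization, removal of a lowess curve, the brightest probe set, a background at the 99th percentile, no filter on low values, a pseudocount of 32 and a 1.5-fold rule. An alternative was taken to leave a difference unchanged if it moved by less than the SD of the S. pombe differences. The tools were Python 3.11.15 with pandas 2.3.3, numpy 2.4.6 and statsmodels 0.14.6.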

Additional observations from a re-analysis of the deposited data

Results flagged for a closer look

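Bacterial control transcripts, which no comparison above uses, differed between the arrays. The 9 probe sets for Bacillus subtilis dap had medians of 14.02 (mock) and 4.16 (alpha factor), a median difference of -9.62. The 9 probe sets for lys had medians of 4.36 and 12.27, a median difference of 7.90. Those for phe had medians of 4.21 and 4.12, and those for thr 4.63 and 4.53. The 27 hybridisation control probe sets for bio and cre differed by between 0.01 and 0.34, with a median of 0.13. The part of these controls in the members' values was not tested.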

How the results depend on the processing

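With 1 array per group, leaving out a replicate was not possible. No paired analysis was possible because each group has 1 sample. The count of 1 higher and 0 lower members was the same under 8 of 9 alternatives. The brightest probe set could not change it, as each member had 1 probe set. Dropping the filter or raising the background could not either, as all members were above background and GPD1 was 7.03 and 8.48 above it. Under the 1.5-fold rule 3 members were higher (GPD1, GPP2, STL1) and none lower, beside 646 genes higher (12.1%) and 570 lower (10.7%) among all genes above background. With the 2-fold rule and the values as deposited, 294 genes were higher and 202 lower. Under the other 8 alternatives these 2 counts changed by no more than 1.5 times. The median of the members lay between -0.13 and -0.09. Other scalings moved the median of all genes by at most 0.03. For genes near the 2-fold rule, such as GPP2, HOR7, SSK22 and SMK1, the side of the rule is not settled by 1 array per condition, and STL1 is limited by its signal over background.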
